A study of Mus musculus with 4 samples.

Results

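Glucose is taken up by facilitative transporters, trapped by hexokinase and split by glycolysis into pyruvate. Pyruvate is either reduced to lactate and exported or admitted to the mitochondrion through pyruvate dehydrogenase, which the pyruvate dehydrogenase kinases switch off. A side branch, the pentose phosphate pathway, makes NADPH and ribose phosphate from the same sugar. In the testis, Sertoli cells are known for exporting lactate that germ cells use, and several glycolytic steps are taken over by germ-cell-specific isozymes later in spermatogenesis.

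The 32 genes described here cover 17 steps of these routes: glucose uptake, each glycolytic enzyme, lactate formation and transport, control of pyruvate entry, control of phosphofructokinase, and both arms of the pentose phosphate pathway. They were picked by gene symbol from a table of 43998 entries. All 32 were found, and 31 had at least 1 RPKM (read counts scaled by transcript length and sequencing depth) in either genotype. The pyruvate dehydrogenase kinase gene Pdk4 did not. The values of Aldoa, Tkt and Pfkfb2 pool the named gene with other symbols at the same place (Gm15676, the microRNA gene Mir3076, and C4bp-ps1 with Gm29427), so they are less certain than the rest.

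The samples were 4 RNA-seq libraries of THY1+ spermatogonia from C57BL/6 mice at postnatal day 4. Of these, 2 came from germ cell RA signaling mutants, animals whose germ cells respond poorly to retinoic acid (RA), a derivative of vitamin A that induces spermatogonia to differentiate, and 2 from controls. The labels name neither the modified gene nor the promoter that drives the change, and they do not say which alleles the controls carry or whether each library had its own animals. Cells had been pulled from testis with magnetic beads against CD90.2, the THY1 surface protein. The authors' table has a single RPKM column for each genotype, headed with both replicates. No spread between replicates could be had, so no difference below carries an SD or a p-value, and the text gives sizes only. Differences are on the scale log2((mutant RPKM + 1) / (control RPKM + 1)), which understates those of genes with low values.

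The low values stepped in whole reads, which placed the depth near 57.3 M reads in mutant and 56.0 M reads in control if no further scaling entered the values. Germ cell markers were present and higher in the mutant, with summed values of 2146 RPKM in mutant and 1479 RPKM in control over 18 genes. Other testicular cells were present too: 15 macrophage markers summed to 1924 RPKM in mutant and 5204 RPKM in control. For 10 Leydig cell markers the sums were 303 RPKM in mutant and 865 RPKM in control, and for 16 Sertoli cell markers 335 RPKM in mutant and 682 RPKM in control. In such bulk samples fewer cells of a type and less RNA per cell cannot be told apart.

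Most of the module was lower in the mutant. Of the 31 genes at 1 RPKM or more, 23 had a log2 difference below 0 and 8 above it. Their median was -0.43, against 0.004 over all 17247 entries compared. Over protein-coding entries it was -0.06, and over those with a mean of 50 RPKM or more -0.10. Below 0 lay 49.7% of all entries and 55.6% of the 12876 protein-coding ones. A difference of at least 1.5-fold was reached downward by 10 genes and upward by 1, where 13.7% of all entries and 14.8% of protein-coding ones were that much lower, and 12.5% and 6.76% that much higher. After a trend with transcript length and GC content was removed, the split at 1.5-fold was 6 lower and 2 higher, beside 10.6% of all entries lower and 14.3% higher in that setting. With the median of germ cell markers set to 0 it was 24 lower and 0 higher, beside 55.2% of all entries lower and 3.13% higher. That setting lowers every value by 0.65, so differences between 0 and 0.65 turn negative by construction. In the unchanged values 3 genes were lower at 2-fold, Ldhb, Pfkl and Pgk1, and none higher. Beside them stood 4.33% of all entries (4.04% of protein-coding ones) lower and 4.35% (1.37%) higher. Of these 3, Ldhb alone stayed past 2-fold with equal protein-coding sums (-1.14) or without the length and GC trend (-1.02). In those settings 2.92% and 3.19% of all entries were at least 2-fold lower. The 32 genes together summed to 2114 RPKM in mutant and 2971 RPKM in control, a ratio of 0.712, where all entries compared had a ratio of 0.895.

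The part of the somatic cells in this shift was not tested. All 15 macrophage markers were lower in the mutant (median log2 difference -1.32), as were 9 of 9 measured Leydig cell markers (-1.30), 7 of 7 mast cell markers (-2.51), 13 of 15 Sertoli cell markers (-0.85), 10 of 10 fibroblast markers (-0.72), 6 of 6 peritubular myoid markers (-0.73) and 5 of 5 erythroid markers (-2.04), while the 10 endothelial markers centred on 0.06. The germ cell markers were higher for 17 of 17 measured (0.65). Among these lists no marker was at 0 in both genotypes. The mast cell receptor gene Fcer1a alone was at 0 in mutant, beside 0.0876 RPKM in control.

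**Figure D1:**
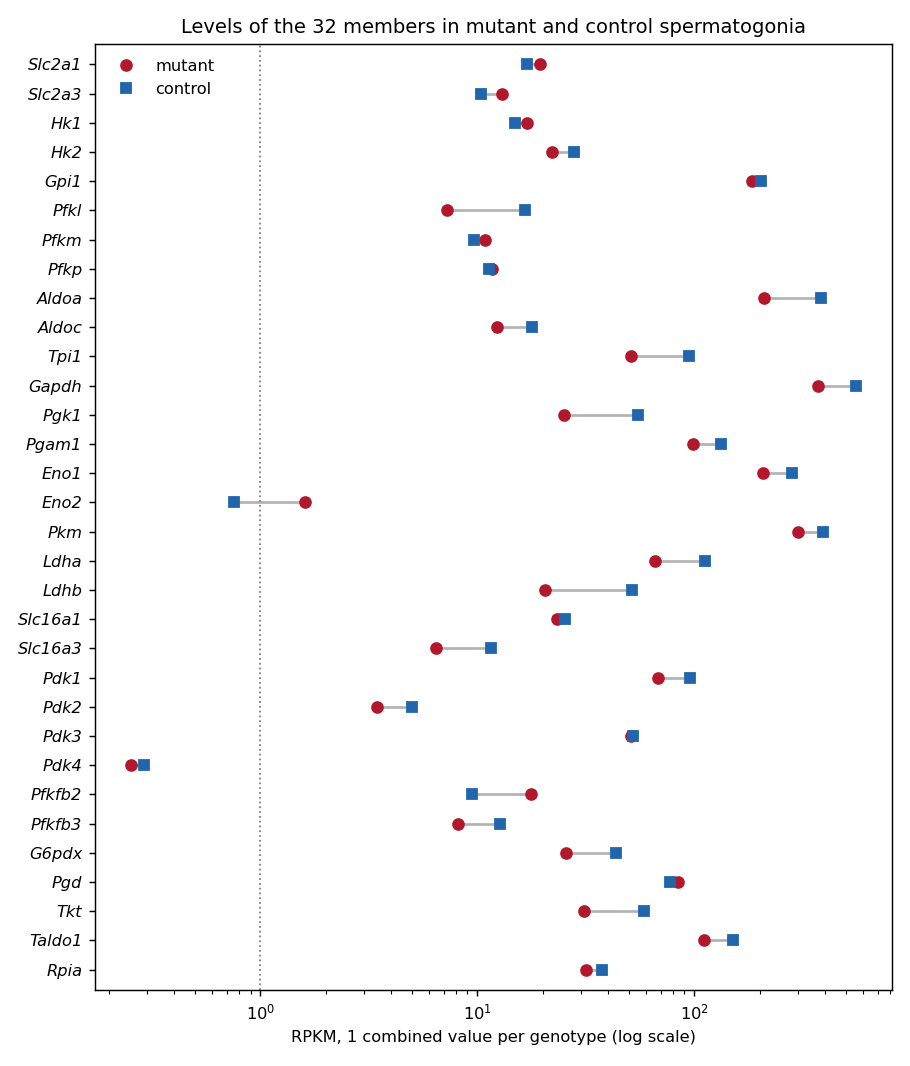
RPKM of each of the 32 genes on a log axis, in pathway order from glucose uptake (top) to the pentose phosphate pathway (bottom); circles are the combined mutant value, squares the combined control value, and the dotted line marks 1 RPKM. Gapdh is highest in both genotypes (374 and 558 RPKM in mutant and control), and Pdk4 lies below the line in both.

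At the entry into glycolysis the listed genes differed in both directions, each by less than 1.5-fold. Slc2a1, the widely used glucose transporter GLUT1, stood at 19.4 RPKM in mutant and 16.9 RPKM in control (log2 difference 0.19). Slc2a3, the high-affinity neuronal-type transporter, stood at 13.0 RPKM in mutant and 10.4 RPKM in control (0.29). Both transporters were thus slightly higher in the mutant, a direction that turned by construction when the germ cell markers were set to 0. Hk1, the hexokinase of most tissues, was at 17.0 RPKM in mutant and 14.9 RPKM in control (0.18), again with the other sign after that rescaling. Hk2, the hexokinase of muscle and of rapidly growing cells, was at 22.1 RPKM in mutant and 28.0 RPKM in control (-0.33). The Hk1 share of the RPKM summed over this pair was 43.5% in mutant (95% exact binomial interval 42.5 to 44.4, counting error only), against 34.7% in control (33.8 to 35.7). Hk3, a hexokinase known from myeloid cells, was at 8.16 RPKM in mutant and 19.9 RPKM in control (-1.19). All 15 macrophage markers were lower in the same values, and a link to Hk3 was not tested. With Hk3 and Hkdc1 counted in, Hk1 held 35.8% of hexokinase RPKM in mutant and 23.7% in control, while the Hk2 share turned to 46.6% in mutant and 44.5% in control. The hexokinase sum then had a mutant to control ratio of 0.753, against 0.910 for Hk1 and Hk2 alone, and glucose uptake with 8 further transporters had 0.967, against 1.19 for the 2 listed. Gpi1, which turns glucose phosphate into fructose phosphate, was among the most abundant members at 184 RPKM in mutant and 204 RPKM in control. Its small difference (-0.15) was positive after quantile normalization, after equal protein-coding sums and without the length and GC trend.

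Phosphofructokinase, the committed step, differed more in make-up than in amount. Its 3 subunit genes summed to 29.8 RPKM in mutant and 37.5 RPKM in control. Pfkl, the liver-type subunit (chromosome 10, 77986947 to 78010083 in GRCm38), was at 7.24 RPKM in mutant and 16.6 RPKM in control, a ratio of 0.436 (counting interval 0.410 to 0.464) and a log2 difference of -1.10. Pfkm, the muscle-type subunit, was at 10.8 RPKM in mutant and 9.61 RPKM in control (0.16). Pfkp, the platelet-type subunit, was at 11.7 RPKM in mutant and 11.3 RPKM in control (0.05). The values of Pfkm and Pfkp were nearly level, and their sign turned by construction when the germ cell markers were set to 0. Pfkl was lower in every setting tried. These included quantile normalization (-1.07), equal protein-coding sums (-0.96) and removal of the length and GC trend (-0.96). Pfkl was thereby the least abundant of the 3 in mutant with 24.3% of their RPKM (23.2 to 25.4), and the most abundant in control with 44.3% (43.1 to 45.4).

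The 2 listed genes that help set the level of fructose 2,6-bisphosphate, an activator of phosphofructokinase, differed in opposite directions. Pfkfb3, an isozyme known for strong kinase activity in proliferating cells, was at 8.13 RPKM in mutant and 12.8 RPKM in control (-0.60). Pfkfb2, the heart-type isozyme, was at 17.7 RPKM in mutant and 9.44 RPKM in control (0.84). With the pseudocount of 1 RPKM this was the largest positive difference of the module, and the 1 at least 1.5-fold higher. As a plain ratio Pfkfb2 came to 1.88, below the 2.13 of the low-level gene Eno2. The Pfkfb2 entry pools 3 symbols. The overlapping gene Yod1, a deubiquitinase listed separately at the same locus, was also higher at 7.44 RPKM in mutant and 4.05 RPKM in control. Pfkfb2 held 68.5% of the summed RPKM of this pair in mutant (67.4 to 69.7) and 42.5% in control (41.1 to 43.8). With 2 further isozymes of this step counted in, Pfkfb2 held 49.6% in mutant and 26.4% in control. Pfkfb3 then held 22.8% in mutant and 35.8% in control. The sum had a mutant to control ratio of 0.998, against 1.16 for the pair.

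From aldolase to pyruvate kinase 8 of 9 genes were lower in the mutant. Below 0 lay 49.7% of all entries and 60.7% of protein-coding entries with a mean of 50 RPKM or more. These 8 genes stayed below 0 in every setting in which they were computed, though most settings could not turn a negative sign. Those that could were quantile normalization, equal protein-coding sums and removal of the length and GC trend. Summed over the 9 genes the level was 1281 RPKM in mutant and 1916 RPKM in control, a ratio of 0.669. Aldoa, the main aldolase, was at 211 RPKM in mutant and 384 RPKM in control (-0.86). Aldoc, the brain-type aldolase, was at 12.3 RPKM in mutant and 17.8 RPKM in control (-0.50), so Aldoa kept 94.5% of aldolase RPKM in mutant and 95.6% in control. Tpi1, which interconverts the triose phosphates, was at 51.1 RPKM in mutant and 95.1 RPKM in control (-0.88). Gapdh, the glyceraldehyde phosphate dehydrogenase often used as a reference transcript, was at 374 RPKM in mutant and 558 RPKM in control (-0.58). It came just short of the 1.5-fold rule, which Pfkfb3 at -0.60 just met.

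Pgk1, which makes the first ATP of glycolysis (chromosome X, 106187100 to 106203699), differed most in this stretch. It was at 25.2 RPKM in mutant and 54.8 RPKM in control, a ratio of 0.459 (0.437 to 0.482) and a log2 difference of -1.09. Pgam1, the phosphoglycerate mutase, was at 98.8 RPKM in mutant and 133 RPKM in control (-0.42). Eno1, the main enolase, was at 208 RPKM in mutant and 281 RPKM in control (-0.43). Pkm, the pyruvate kinase of most tissues, whose splice forms a gene-level value does not separate, was at 300 RPKM in mutant and 392 RPKM in control (-0.38). Differences from Pgam1 to Pkm were thus smaller than those from Aldoa to Pgk1. Eno2, the neuronal enolase, was the exception above 0, at 1.61 RPKM in mutant and 0.757 RPKM in control (0.57). That value stands on about 239 mutant and 110 control reads and, as a plain ratio, came to 2.13 (1.69 to 2.70), but it was below 0 with the germ cell markers set to 0. Processed copies of these genes can take some of their reads. Of 9 named copies in the table, Eno1b reached 9.58 RPKM in mutant and 12.5 RPKM in control, and the others lay at or below 0.257 RPKM. Only copies whose symbol is built on that of the parent gene were sought, so others may exist.

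Lactate dehydrogenase was lower by both subunit genes. Ldha, whose subunit favours lactate formation, was at 65.8 RPKM in mutant and 112 RPKM in control (-0.75). Ldhb, whose subunit favours lactate use (chromosome 6, 142490249 to 142507957), was at 20.5 RPKM in mutant and 51.5 RPKM in control, a ratio of 0.397 (0.372 to 0.424) and the largest negative difference of the module at -1.29. It was past 2-fold in every setting tried. The Ldhb share of the pair was 23.7% in mutant (22.6 to 24.8) and 31.6% in control (30.7 to 32.4). Slc16a3, the exporter MCT4 of highly glycolytic cells, was at 6.42 RPKM in mutant and 11.5 RPKM in control (-0.75). Slc16a1, the general lactate carrier MCT1, was close to level at 23.4 RPKM in mutant and 25.3 RPKM in control (-0.11), and lay above 0 after equal protein-coding sums. Ldhc, the germ-cell lactate dehydrogenase of later stages, was not named by the rule for genes outside the module and was looked up after the values were seen, at 2.64 RPKM in mutant and 2.51 RPKM in control.

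**Figure D2:**
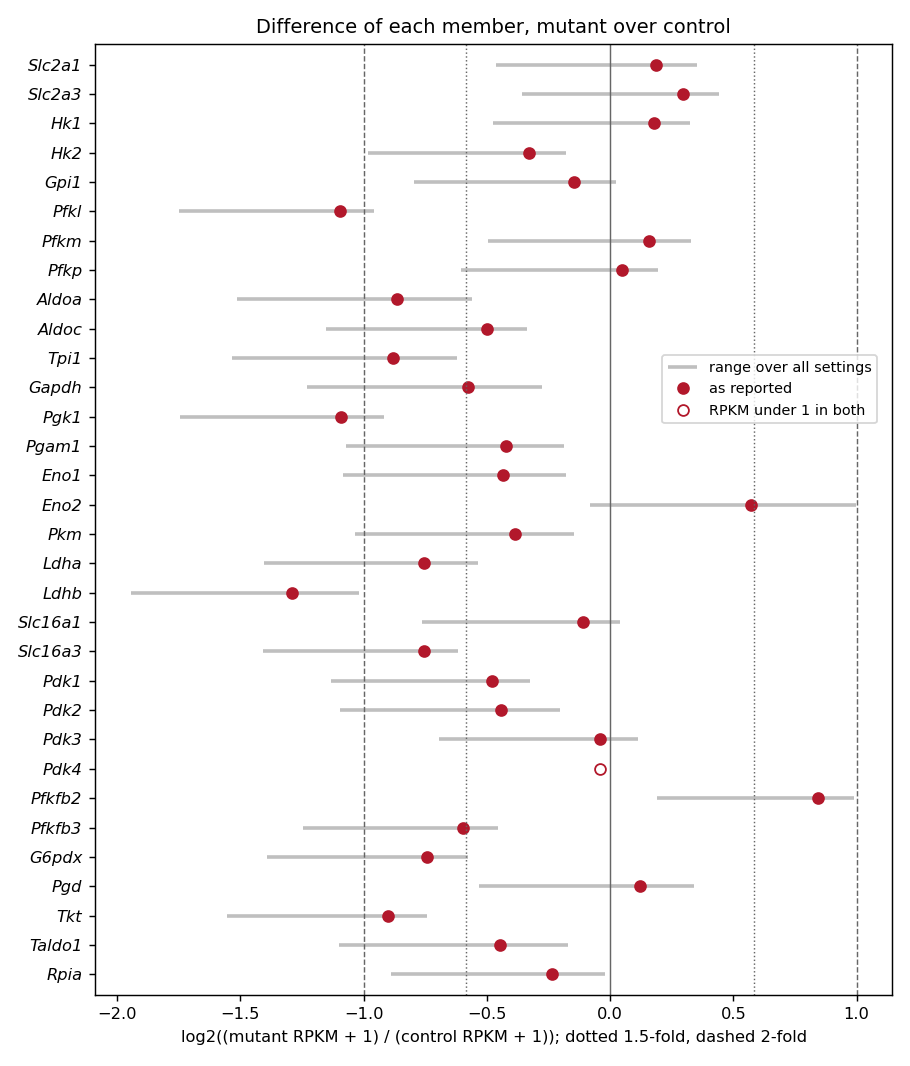
Log2 difference, mutant over control, of each gene in pathway order (points), with the range over the settings tried (grey bars); dotted and dashed lines mark 1.5-fold and 2-fold. Ldhb (-1.29), Pfkl (-1.10) and Pgk1 (-1.09) lie beyond the lower dashed line, and the open point is Pdk4, under 1 RPKM in both genotypes.

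Promoter sequences of the isozyme pair Ldha and Ldhb and of the other genes past 2-fold are shown because these genes had lower mutant values while differing in the core letters of the hypoxia response element, ACGTG, which the hypoxia-inducible factors that drive many glycolytic genes are known to bind. The windows are from RefSeq on GRCm38.p6 and run from 250 bases before the start site to 50 bases from it, with capitals on every ACGTG or its other strand CACGT. They lie at chr7:46845554-46845853 (plus strand) for Ldha, chr6:142507908-142508207 (minus strand) for Ldhb, chrX:106186850-106187149 (plus strand) for Pgk1 and chr10:78009758-78010057 (minus strand) for Pfkl.
Ldha: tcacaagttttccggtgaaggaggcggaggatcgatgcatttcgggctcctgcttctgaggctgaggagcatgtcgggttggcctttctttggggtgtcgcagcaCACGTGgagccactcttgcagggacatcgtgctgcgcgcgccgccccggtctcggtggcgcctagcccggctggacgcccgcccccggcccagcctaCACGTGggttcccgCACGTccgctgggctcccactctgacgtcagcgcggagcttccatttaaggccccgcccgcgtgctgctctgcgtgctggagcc
Ldhb: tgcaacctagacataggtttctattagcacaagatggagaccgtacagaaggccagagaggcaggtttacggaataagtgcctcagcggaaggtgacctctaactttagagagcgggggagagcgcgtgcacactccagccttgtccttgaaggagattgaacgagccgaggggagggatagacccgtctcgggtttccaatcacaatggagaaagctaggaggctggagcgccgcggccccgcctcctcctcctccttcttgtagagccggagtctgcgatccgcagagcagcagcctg
Pgk1: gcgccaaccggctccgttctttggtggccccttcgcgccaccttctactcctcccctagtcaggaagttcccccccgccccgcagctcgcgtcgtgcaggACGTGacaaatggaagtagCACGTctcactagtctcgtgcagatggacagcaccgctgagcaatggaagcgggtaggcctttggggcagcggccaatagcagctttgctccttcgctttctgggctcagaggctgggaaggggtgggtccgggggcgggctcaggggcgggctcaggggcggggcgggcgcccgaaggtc
Pfkl: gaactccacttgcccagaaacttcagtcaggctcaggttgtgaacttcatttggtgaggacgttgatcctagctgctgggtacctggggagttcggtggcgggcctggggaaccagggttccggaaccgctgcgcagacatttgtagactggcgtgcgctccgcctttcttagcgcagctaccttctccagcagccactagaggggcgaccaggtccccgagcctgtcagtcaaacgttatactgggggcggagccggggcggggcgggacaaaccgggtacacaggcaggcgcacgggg

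Ldha held 5 matches, of which 4 came in overlapping pairs within CACGTG, Pgk1 held 2, and Ldhb and Pfkl held none in this window. A promoter was matched for 31 of the 32 genes, Slc2a3 being the exception, and the window nearest the annotated gene start was taken where there were several. ACGTG on either strand was in 14 of these 31 windows (45.2%), against 19.6% of all 32851 mouse windows. For this and the motifs below, the background counts every window of a gene, while each member has 1. It was not matched for GC content, so the shares are not like for like. It was in 5 of the 10 genes at least 1.5-fold lower and in 9 of the other 21. CACGTG, the E-box that contains ACGTG, was in 4 of 31 windows (12.9%), against 7.15% of all. AGGTCA, the element that retinoic acid receptors bind in repeats, was in 3 of 31 (9.68%), against 16.3% of all, namely in Eno1, Ldhb and Tpi1. The hypoxia factors and targets outside glycolysis, 19 genes that all reached 1 RPKM, had a median log2 difference of 0.07. Of these genes 9 lay below 0 and 10 above, with values from -0.99 to 0.99. At least 1.5-fold lower were 2 and higher 1, beside 13.7% and 12.5% of all entries. The median does not separate the factors from their targets. Highest of the 19 by level was the mitophagy receptor gene Bnip3l, at 162 RPKM in mutant and 153 RPKM in control.

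Pyruvate dehydrogenase kinases were lower or level. Pdk1, an isozyme induced by low oxygen in many cells, was the most abundant at 68.3 RPKM in mutant and 95.6 RPKM in control (-0.48). Pdk3, an X-linked isozyme, was at 50.9 RPKM in mutant and 52.4 RPKM in control (-0.04), a difference whose counting interval as a ratio ran from 0.936 to 1.01. Pdk2 was lower in level than both, at 3.43 RPKM in mutant and 5.02 RPKM in control (-0.44). Pdk4, the isozyme of fasting and fat use, was at 0.254 RPKM in mutant and 0.291 RPKM in control, about 48 and 54 reads, and no difference was detectable at this depth. The pyruvate dehydrogenase complex and its phosphatases, 9 genes, centred on -0.05. Among them Pdhb, the E1 beta subunit, was at 45.1 RPKM in mutant and 50.8 RPKM in control. Pdha2, the testis-specific E1 alpha subunit, was at 15.0 RPKM in mutant and 5.21 RPKM in control (1.36). All 17 measured germ cell markers were higher in the same values, and a link to Pdha2 was not tested. Another germ cell isozyme, the transketolase-like gene Tktl2, went the other way, at 6.27 RPKM in mutant and 12.1 RPKM in control (-0.85). The rule for genes outside the module did not name Tktl2.

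**Figure D3:**
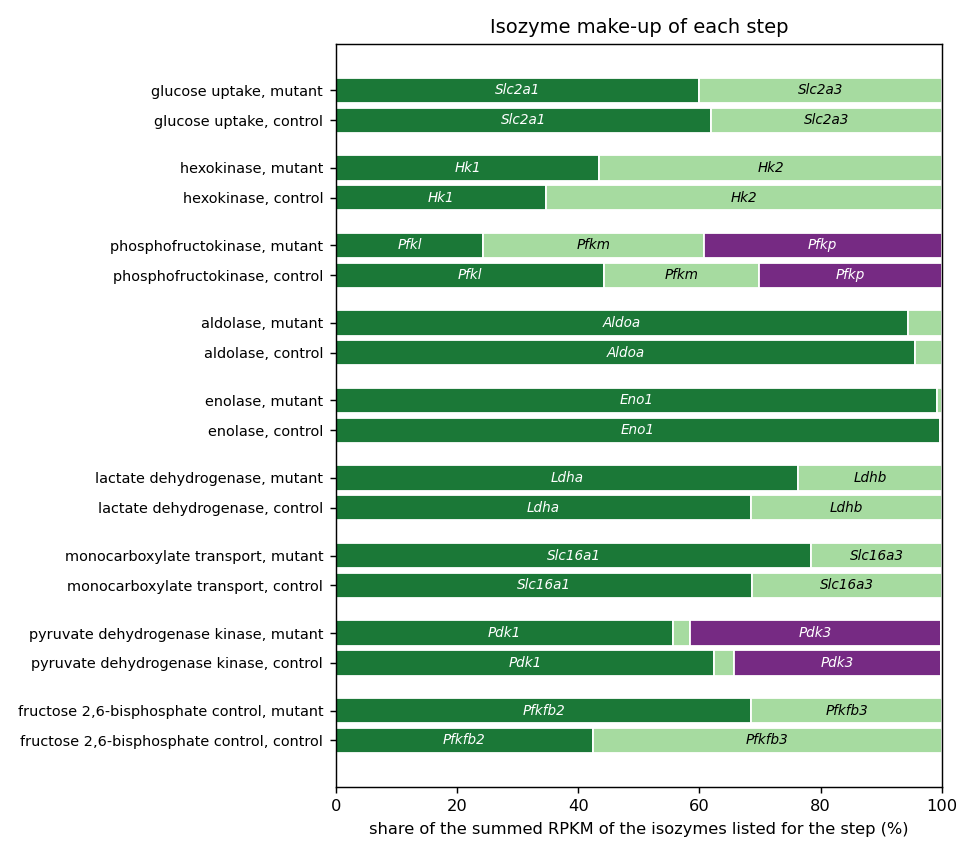
Share of each isozyme in the summed RPKM of the isozymes listed for its step, without further isozymes, with the mutant bar above the control bar. Bars add to 100% within a genotype, and slices without a name are Aldoc, Eno2, Pdk2 and Pdk4. The widest shifts among these steps are at Pfkfb2 (68.5% in mutant, 42.5% in control) and Pfkl (24.3% in mutant, 44.3% in control).

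In the pentose phosphate pathway the enzymes of the oxidative arm parted. G6pdx, the rate-limiting dehydrogenase on the X chromosome, was at 25.7 RPKM in mutant and 43.6 RPKM in control (-0.74). Pgd, the dehydrogenase that follows it, was at 84.1 RPKM in mutant and 77.2 RPKM in control (0.12), with a negative sign, by construction, once the germ cell markers were set to 0. In the non-oxidative arm Tkt, the transketolase, was at 31.1 RPKM in mutant and 58.9 RPKM in control (-0.90). Taldo1, the transaldolase, was at 111 RPKM in mutant and 151 RPKM in control (-0.45). Rpia, the ribose phosphate isomerase, was at 31.6 RPKM in mutant and 37.4 RPKM in control (-0.24). All 3 genes of that arm were lower, as were 6 of 8 measured genes of the wider pentose phosphate list. Of all entries 49.7% were below 0. The most abundant of that list, the lactonase gene Pgls, was at 43.9 RPKM in mutant and 55.7 RPKM in control. Its entry pools Pgls with Fam129c.

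Genes around the module were mixed. Of 20 genes of the tricarboxylic acid cycle 20 were below 0, with a median of -0.39, and both NADP-dependent isocitrate dehydrogenases were just past 2-fold. Of all entries 49.7% were below 0 and 4.33% at least 2-fold lower. Idh1 was at 34.1 RPKM in mutant and 70.8 RPKM in control (-1.04), and Idh2 at 41.3 RPKM in mutant and 87.0 RPKM in control (-1.05). All 38 measured nuclear-encoded genes of oxidative phosphorylation were below 0 as well (median -0.40), with Atp5b of ATP synthase at 767 RPKM in mutant and 958 RPKM in control. With equal protein-coding sums 16 cycle genes and 37 of these respiratory chain genes were below 0, with medians of -0.24 each. In that setting 39.1% of all entries were below 0, and their median was 0.14. The module's median was -0.28 in that setting and -0.43 in the unchanged values. Both lists had medians close to it each time, and no test of the difference could be made. Gluconeogenesis and side branches had 12 of 14 genes below 0 (median -0.55), beside 49.7% of all entries. At least 2-fold lower were 3 of them, beside 4.33% of all entries. Aldh2, a mitochondrial aldehyde dehydrogenase, was at 70.5 RPKM in mutant and 171 RPKM in control. Sord, the sorbitol dehydrogenase, was at 7.51 RPKM in mutant and 18.4 RPKM in control. Gpd1l, a glycerol phosphate dehydrogenase-like enzyme, was at 8.56 RPKM in mutant and 19.2 RPKM in control. Phgdh, which diverts a glycolytic intermediate into serine, was at 133 RPKM in mutant and 119 RPKM in control.

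Most other lists lay near 0. Every median of them above 0 turned negative by construction when the germ cell markers were set to 0, which lowers all values by 0.65. In that setting 89.5% of all entries were below 0. Glycogen metabolism centred on 0.03 over 12 genes, led by the phosphorylase gene Pygb at 61.3 RPKM in mutant and 54.1 RPKM in control. Lactate and monocarboxylate handling outside the module centred on 0.05 over 9 genes, led by Bsg, the chaperone of the lactate carriers, at 152 RPKM in mutant and 204 RPKM in control. Other glycolytic enzymes centred on 0.07 over 6 genes, led by Pgam5, a mitochondrial phosphatase, at 36.7 RPKM in mutant and 35.7 RPKM in control. Germ cell isozymes of glycolysis centred on 0.13, but only 4 of 7 reached 1 RPKM. Of these 4, 1 was at least 1.5-fold lower and 1 higher, beside 13.7% and 12.5% of all entries. The remaining glucose transporters and hexokinases had a median of -0.33 over 8 genes, led by Adpgk, an enzyme that phosphorylates glucose with ADP, at 17.4 RPKM in mutant and 17.9 RPKM in control. Other genes of fructose bisphosphate control also centred on -0.33, over 4 genes, led by Tigar at 13.6 RPKM in mutant and 12.4 RPKM in control. Regulators of glycolytic genes centred on 0.10 over 12 genes, led by Txnip, which restrains glucose uptake, at 406 RPKM in mutant and 300 RPKM in control.

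**Figure D4:**
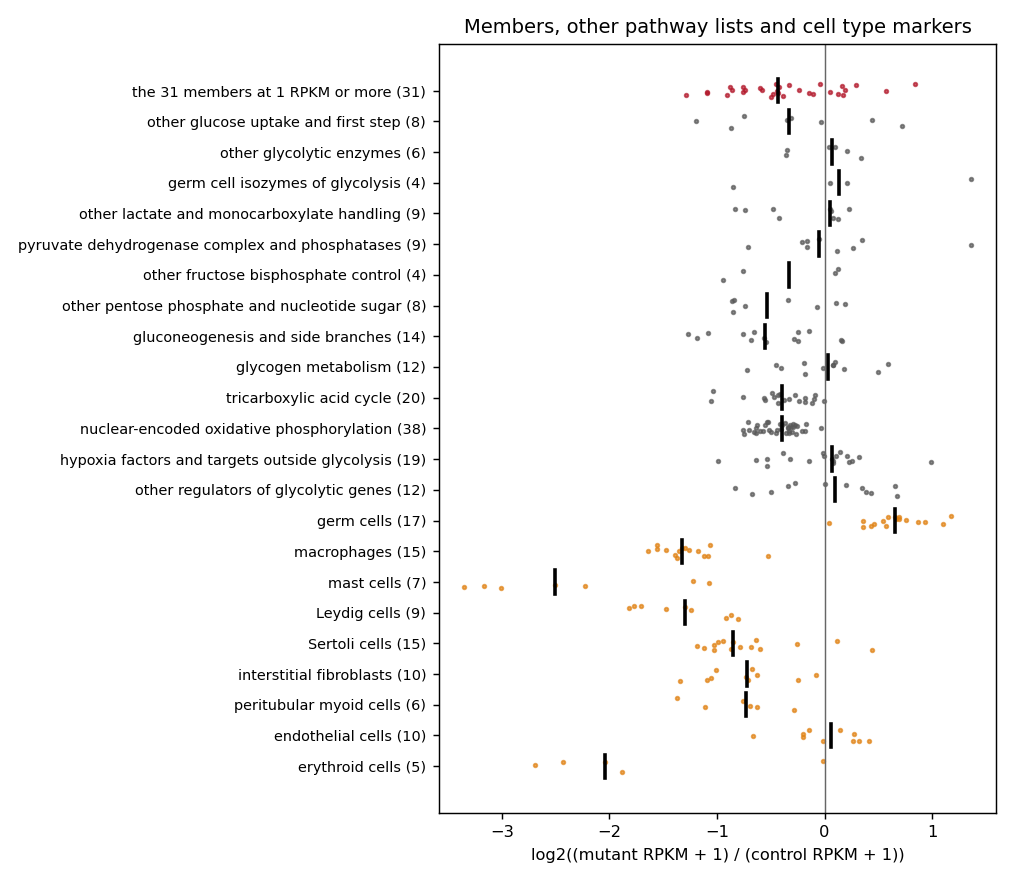
Log2 difference, mutant over control, of the genes with at least 1 RPKM in either genotype, for the module (top), the other pathway lists (grey) and the cell type markers (orange); black bars are medians and the number of genes stands in brackets. The module's median (-0.43) lies near those of the tricarboxylic acid cycle (-0.39) and oxidative phosphorylation (-0.40), between germ cell markers (0.65) and macrophage markers (-1.32).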

How the data were processed

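RNA of 4 libraries, 2 mutant and 2 control, was sequenced. TopHat2 2.0.11 and GRCm38 come from the submitters' processing notes. For the counter and the gene models, the sources used here give no name. The authors deposited RPKM in 1 combined column per genotype, per the file headers, so the limma fit planned for separate libraries could not be made, and differences are described by size only. A symbol listed with others in 1 entry was taken from that entry, and a recurring symbol from its entry of highest mean. Entries with 1 RPKM or more in either genotype were compared with a pseudocount of 1 RPKM. Deposited starts are 0-based and are given here plus 1.

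Transcript length, GC content and biotype came from GENCODE M21. Depth was read from genes with 1 transcript: of low values up to 10 reads, 95.3% of 900 mutant and 90.5% of 884 control values lay within 0.1 of a whole read. Reads per gene assume the longest protein-coding transcript, and intervals (95%) cover counting error only. Trends were present: the median log2 difference was -0.27 for the shortest 10% of protein-coding transcripts, against 0.14 for the longest. Alternatives were other pseudocounts, filters, scalings, quantile normalization and removal of the length and GC trend with a polynomial of degree 3. Python 3.11.15, numpy 2.4.6 and scipy 1.17.1 were used, and the calculation was tested on simulated data. Genes outside the module are named if past 2-fold or highest in their list. The members and lists were chosen with earlier results of these data known.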

Additional observations from a re-analysis of the deposited data

How the results depend on the processing

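No paired analysis was possible because the deposited columns combine both libraries of a genotype, which also kept any library from being left out. Of the 32 genes, 21 were negative and 1 positive in every setting in which they had a value, and 10 had the other sign in at least 1 of 10 settings. Much of this was fixed in advance. Other pseudocounts and filters cannot turn a sign, and setting the median of all entries or of germ cell markers to 0 only lowers values. A negative sign could turn only with quantile normalization, equal protein-coding sums or removal of the length and GC trend. Pdk4, 1 of the 21, was counted in 1 setting only. No gene at least 1.5-fold different at the pseudocount of 1 RPKM turned, but Eno2, past 1.5-fold at pseudocounts of 0.1 and 0.5 RPKM, turned to -0.08 with the germ cell median at 0. Setting the germ cell median to 0 moved the median of all entries to -0.65 and that of the module to -1.09, with 24 genes at least 1.5-fold lower, 0 higher and 18 at least 2-fold lower, where 55.2%, 3.13% and 24.9% of all entries were. Equal protein-coding sums moved the median of all entries to 0.14 and gave a module median of -0.28, with 1 gene at least 2-fold lower and 2 at least 1.5-fold higher. Of all entries 9.77% were then at least 1.5-fold lower, 17.9% at least 1.5-fold higher and 2.92% at least 2-fold lower. Without the length and GC trend the module median was -0.19 and that of all entries 0.08. The trend was fitted on protein-coding entries alone, so these medians are not like for like. In that setting 6 genes were at least 1.5-fold lower, 2 higher and 1 at least 2-fold lower. Of all entries 10.6%, 14.3% and 3.19% were. With a pseudocount of 0.1 or 0.5 RPKM 2 genes were at least 1.5-fold higher, beside 17.5% and 15.0% of all entries. Among the 28 members whose entry names 1 gene 0 were, beside 12.7% of all such entries. This last alternative was chosen after seeing the data and leaves out Pfkfb2 by construction. With further isozymes counted, the difference in share (mutant minus control) turned to 6.47 points for Slc2a1 (-2.01 with the listed genes) and 2.11 points for Hk2 (-8.71). Beyond these shifts by construction, the cause was not tested. Counting error alone covers the differences of Pdk4, Pdk3 and Pfkp, and the lack of separate libraries limits every difference.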
